A study of Homo sapiens with 28 samples.

Results

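The 4 genes TEAD1, TEAD2, TEAD3 and TEAD4 encode the DNA-binding partners of the coactivators TAZ and YAP, and they were followed through 14 H3K27ac ChIP-seq peak lists of SW872 cells, an established human liposarcoma line. A peak counted toward a gene when it overlapped the gene's body, widened by 20 kb on each side, in the GRCh37/hg19 build of the lists. By this rule 787 of 654580 peaks belonged to the 4 genes. Merging the peaks of all lists wherever they overlapped or touched gave 138757 regions, of which 97 lay in the TEAD windows. The rule itself uses positions only, although the genes were proposed with earlier results of these data known.

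The TEAD proteins recognise a short DNA element through their TEA domain and have little activating power of their own. TAZ and YAP do not bind DNA directly, and reach chromatin mainly through the TEADs. The Hippo kinases LATS1 and LATS2 phosphorylate TAZ and YAP and keep them out of the nucleus. H3K27ac, acetylation of lysine 27 of histone H3, marks active promoters and enhancers, so a peak at a TEAD gene reports the chromatin state of that gene and not binding by the TEAD protein.

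Cells had been stably transduced with retroviral constructs, and by the labels 2 lists each came from cells carrying the empty vector, TAZ4SA, YAP5SA, TAZ_CAMTA1, YAP_TFE3, CAMTA1 or TFE3. TAZ4SA and YAP5SA are active forms whose serine-to-alanine changes remove LATS phosphorylation sites. TAZ_CAMTA1 and YAP_TFE3 are the fusion proteins of epithelioid hemangioendothelioma, a vascular sarcoma, and keep the TEAD-binding N terminus of TAZ or YAP. CAMTA1 and TFE3 are the full-length fusion partners. The cells were pooled stable lines. The study's methods give separate transductions as the origin of its biological triplicates. For H3K27ac they name biological duplicates without stating how these arose. The sources differ on culture density, as the study's ChIP methods give 90% confluence for all groups and the labels make an exception of CAMTA1, collected below confluence. The constructs stood on top of the cells' own TAZ, YAP and TEAD proteins. The peak lists held no gene names and no annotation of their build was used, so the identity of the line was not checked against marker genes.

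The names of the peaks inside the lists carry a construct as well, and in 14 of 14 lists it differs from the label. Peaks named for the empty vector fill the TAZ4SA lists, peaks named for TAZ4SA fill the TAZ_CAMTA1 lists, and peaks named for TAZ_CAMTA1 fill the CAMTA1 lists. CAMTA1 peaks are in turn those of the empty vector lists. Peaks named for YAP5SA fill the YAP_TFE3 lists, YAP_TFE3 peaks are those of the TFE3 lists, and TFE3 peaks those of the YAP5SA lists. Which naming is right cannot be told from the lists. The same 2 lists stay together under both namings in all 7 groups. Lists are called by their label below, and the comparison of TEAD-binding constructs with the others was also made by the peak names.

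The lists differed widely in size, from 5721 peaks covering 3.7 Mb in TFE3 replicate 1 to 102009 peaks covering 174.7 Mb in TAZ4SA replicate 1. Read depth is unknown, since the lists hold no read counts. Both TAZ4SA lists covered more bases than each of the other 12 lists in 64.6% of the 23317 regions found in at least 7 lists. For this reason a peak is described by its rank within its own list, where rank 1 is the smallest p-value of the peak caller, beside its width in bp.

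Across the family, H3K27ac at the gene start was strongest at TEAD1, intermediate at TEAD2 and TEAD4, and weakest at TEAD3. The start peak, taken as the best-ranked peak within 1 kb of the annotated gene start, was present for TEAD1 and TEAD2 in 14 of 14 lists, for TEAD4 in 13 and for TEAD3 in 12. Its median rank was 1031.5 for TEAD1, 4480.5 for TEAD2, 6030 for TEAD4 and 14504 for TEAD3. The TEAD1 peak ranked better than the TEAD2 peak in 13 of 14 lists, and better than the TEAD3 and TEAD4 peaks in every list that held both (12 and 13 lists). TEAD4 ranked better than TEAD3 in 12 of 12 lists. TEAD2 and TEAD4 are neighbours in this order that changed places between lists, TEAD2 being ahead in 8 and TEAD4 in 5 of 13. These orders are counts over lists and were not tested.

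**Figure D1:**
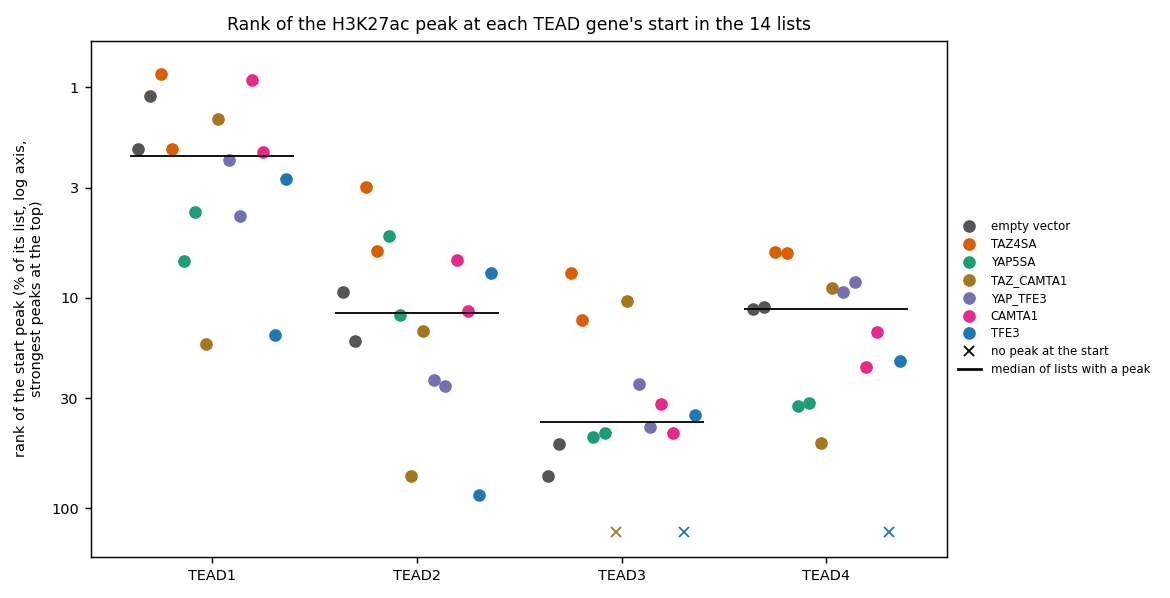
Rank of the start peak of each TEAD gene as a percent of the length of its list (log axis, strongest at the top), with 1 point for each of the 14 lists coloured by label and a line at the median of the lists with a peak. The medians fall from 2.12% at TEAD1 to 11.8% at TEAD2, 11.3% at TEAD4 and 38.7% at TEAD3, and crosses mark the 2 lists without a TEAD3 start peak and the 1 without a TEAD4 start peak.

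The family members differed in how far the mark spread, too. The TEAD1 window held between 6 and 74 peaks in a list (median 44), against 1 to 7 for TEAD2, 1 to 9 for TEAD3 and 0 to 21 for TEAD4. Peaks covered a median of 19.8% of the TEAD1 window, 9% of the TEAD3 window, 5.28% of the TEAD2 window and 4.55% of the TEAD4 window. The covered share of the window exceeded that of its own chromosome in 14 of 14 lists for TEAD1 and TEAD3, in 13 for TEAD4 and in 11 for TEAD2. The body alone, without the flanks, exceeded the chromosome in 14 lists for TEAD1, 13 for TEAD2 and TEAD3, and 12 for TEAD4. Part of the TEAD3 window's coverage is a peak beyond the gene's 3′ end, which is all of the coverage in TFE3 replicate 1, and the mean covered length was 5107.9 bp without the flanks against 8418.4 bp with them. The median ratio of the 2 shares was 7.35 for TEAD1, 5.94 for TEAD3, 2 for TEAD4 and 1.7 for TEAD2. When each chromosome was divided into consecutive bins as long as the TEAD1 window, a median of 0.774% of the bins with a peak was more covered than TEAD1, against 16.4% for TEAD3, 31% for TEAD4 and 34.1% for TEAD2 at their own window lengths. These are descriptions without a test.

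**Figure D2:**
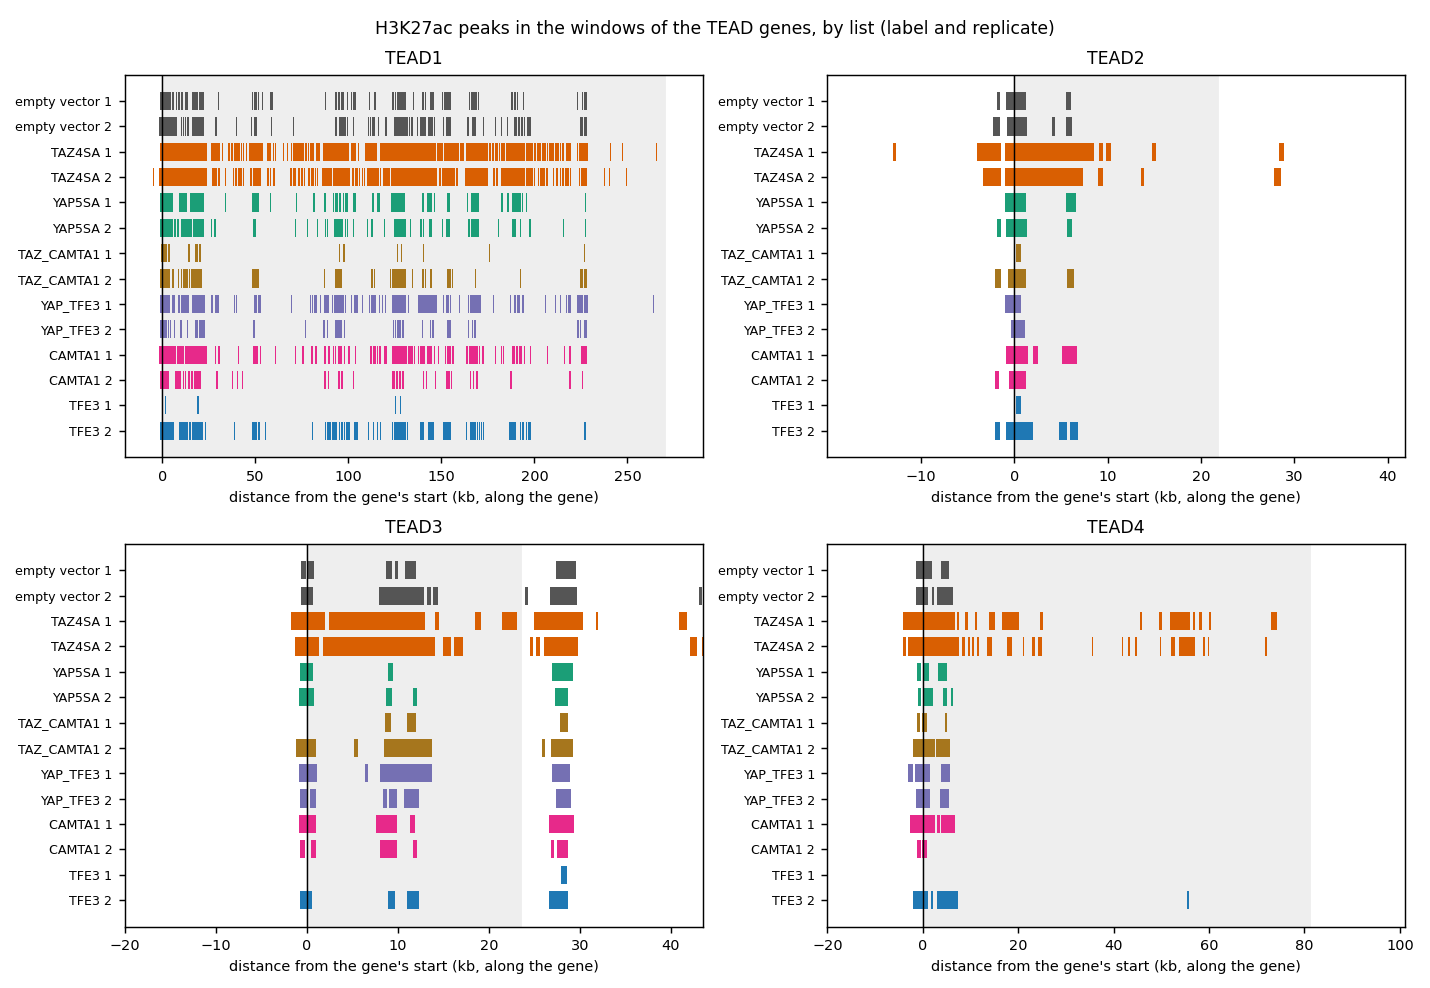
Position of every H3K27ac peak in the 4 windows as distance in kb from the gene start along the gene, 1 row per list coloured by label, with the gene body shaded. Peaks are spread along most of the TEAD1 body and stop before its 3′ end in every list. At TEAD2 and TEAD4 the peaks farther than 8 kb from the start are those of the TAZ4SA lists (8 of 8 and 31 of 32, the other in TFE3 replicate 2). The TEAD3 window holds clusters of peaks at the start, inside the body and beyond the 3′ end.

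TEAD1 lies on the plus strand of chromosome 11 (hg19 chr11:12695969-12966298). Its start peak ranked 846 and 548 in the empty vector lists, 876 and 1938 in the TAZ4SA lists, and 2080 and 1187 in the YAP5SA lists. It ranked 3591 and 689 in the TAZ_CAMTA1 lists, 1270 and 1621 in the YAP_TFE3 lists, 443 and 636 in the CAMTA1 lists, and 856 and 1286 in the TFE3 lists. The 3 best rank numbers were those of both CAMTA1 lists and empty vector replicate 2, whereas as a share of the list TAZ4SA replicate 1 was first (0.859%), followed by CAMTA1 replicate 1 (0.923%) and empty vector replicate 2 (1.1%). The weakest shares were 16.5% in TAZ_CAMTA1 replicate 1 and 15% in TFE3 replicate 1. Because all ranks were within the length of the shortest list, the TEAD1 start peak was among the best 5721 peaks in 14 of 14 lists. The same held for TEAD2 in 8 lists, TEAD4 in 6 and TEAD3 in 1.

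The TEAD1 start peak measured 506 bp in TFE3 replicate 1 and between 3407 and 25351 bp in the other lists, with a median of 6386 bp over all 14. In TAZ4SA replicate 1 a single peak of 25351 bp ran from the start into the gene, and in the other TAZ4SA list the start peak was 10512 bp wide. Its summit lay inside the gene in every list, 0.149 to 1.96 kb past the start, and the peak spanned the start itself in 13 of 14 lists. The merged start-site region, from 1.53 kb before the start to 24.17 kb after it (chr11:12694439-12720140), had a peak in all 14 lists, as did 2.93% of all merged regions. Of the 4061 regions with a peak in all lists, 135 were wider than it by median covered bases (18710 bp).

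A second TEAD1 region with a peak in all 14 lists lay inside the gene, 118.8 to 159.5 kb past the start (chr11:12814753-12855500). Its covered length was 15856 and 19017 bp in the empty vector lists, 39681 and 36400 bp in the TAZ4SA lists, and 14372 and 13619 bp in the YAP5SA lists. It was 1864 and 13279 bp in the TAZ_CAMTA1 lists, 21248 and 9019 bp in the YAP_TFE3 lists, 23193 and 9791 bp in the CAMTA1 lists, and 1011 and 17372 bp in the TFE3 lists. The TAZ4SA lists were above all others, as they were in 64.6% of the 23317 regions found in at least 7 lists. The ratio between the 2 lists of a label was largest for TFE3 and TAZ_CAMTA1, each of which holds 1 of the 2 shortest lists. By rank this intragenic region (median 6299.5) was weaker than the start-site region (median 866), and 84.8% of the regions in all lists were ranked better. A further 3 regions of the TEAD1 body had a peak in 13 lists and were missing only from TFE3 replicate 1. Peaks covered a median of 22.3% of the TEAD1 body, and no list had a peak in the 20 kb beyond its 3′ end.

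TEAD2 lies on the minus strand of chromosome 19 (hg19 chr19:49843853-49865714), with the neighbouring gene DKKL1 at its start by the order of genes in RefSeq. Promoter sequence from RefSeq was held for 2 of the 4 genes, TEAD2 and TEAD3, in build GRCh38.p14 (250 bases before to 50 after a start). The 2 TEAD2 entries are 899 bases apart, and they are shown because the summit of the TEAD2 peak lay just past the start in all lists. Both read 5′ to 3′ on the gene's strand, with the GC box GGGCGG or its reverse complement CCGCCC in capitals.
TEAD2 at the first start (GRCh38.p14 chr19:49362367-49362666, minus strand): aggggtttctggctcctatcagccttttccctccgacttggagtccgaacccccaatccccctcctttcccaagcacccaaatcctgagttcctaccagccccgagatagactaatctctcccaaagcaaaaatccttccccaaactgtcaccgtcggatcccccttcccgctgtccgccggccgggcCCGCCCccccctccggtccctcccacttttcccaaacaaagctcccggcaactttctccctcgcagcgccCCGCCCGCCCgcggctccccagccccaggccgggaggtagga
TEAD2 at the second start (GRCh38.p14 chr19:49361468-49361767, minus strand): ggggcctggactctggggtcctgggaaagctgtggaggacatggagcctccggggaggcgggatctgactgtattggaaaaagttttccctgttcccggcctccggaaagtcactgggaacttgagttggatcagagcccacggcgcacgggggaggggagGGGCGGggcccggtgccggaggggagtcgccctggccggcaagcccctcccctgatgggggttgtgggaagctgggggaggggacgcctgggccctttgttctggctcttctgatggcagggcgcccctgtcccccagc

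The first TEAD2 sequence was 64% G and C with 19 CpG dinucleotides and 3 matches to the GC box, of which 2 overlap. The second was 67.7% G and C with 14 CpG dinucleotides and 1 match. Over the 35116 promoters of the table the median was 58.7% G and C and 14 CpG, and 45% held a GC box on either strand. The TEAD element GGAATG, the E-box CACGTG, which is bound by TFE3 and its relatives, and the AP-1 element TGANTCA had no match on either strand in these windows. They occurred in 14%, 7.26% and 7.71% of all promoters.

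The TEAD2 start peak ranked 4013 and 8050 in the empty vector lists, 3021 and 5941 in the TAZ4SA lists, and 1588 and 3638 in the YAP5SA lists. It ranked 15300 and 6965 in the TAZ_CAMTA1 lists, 14176 and 10349 in the YAP_TFE3 lists, 3174 and 3641 in the CAMTA1 lists, and 4948 and 3603 in the TFE3 lists. By rank number the weakest were both YAP_TFE3 lists and TAZ_CAMTA1 replicate 1, and as a share of the list TFE3 replicate 1 (86.5%) and TAZ_CAMTA1 replicate 1 (70.4%). By the labels the peak stood at 24.7% and 26.1% of the YAP_TFE3 lists and at 5.11% and 12% of the YAP5SA lists, without overlap. The best peaks stood in that order without overlap in 14.4% of the 14592 regions that had a peak in these 4 lists and in at least 7 of the 14. By the peak names the lists at 24.7% and 26.1% are those of YAP5SA, and those of YAP_TFE3 stood at 86.5% and 7.62%, so the groups overlapped. With 2 lists against 2, the smallest two-sided exact permutation p is 0.333, so single pairs of labels were not tested.

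In width the TEAD2 start peak was 9519 and 8395 bp in the TAZ4SA lists and between 532 and 2919 bp in the other 12. The TAZ4SA lists thus stood apart from the rest in width at this gene. Both covered more bases than each of the other 12 in 64.6% of the 23317 regions found in at least 7 lists. The summit of the TEAD2 start peak lay 0.172 to 0.607 kb past the start in all 14 lists. A second region, before the start and on the side of DKKL1 (chr19:49867160-49869751), had a peak in 8 lists, 1 or 2 of each label except YAP_TFE3.

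TEAD3 lies on the minus strand of chromosome 6 (hg19 chr6:35441374-35464861). Its RefSeq promoter is shown because the start peak of this gene was the weakest of the family, and the sequence is the richest of the 3 in G and C (81.3%), with 44 CpG dinucleotides and 5 GC boxes in capitals. It had no match to the TEAD, E-box or AP-1 letters above.
TEAD3 (GRCh38.p14 chr6:35497030-35497329, minus strand): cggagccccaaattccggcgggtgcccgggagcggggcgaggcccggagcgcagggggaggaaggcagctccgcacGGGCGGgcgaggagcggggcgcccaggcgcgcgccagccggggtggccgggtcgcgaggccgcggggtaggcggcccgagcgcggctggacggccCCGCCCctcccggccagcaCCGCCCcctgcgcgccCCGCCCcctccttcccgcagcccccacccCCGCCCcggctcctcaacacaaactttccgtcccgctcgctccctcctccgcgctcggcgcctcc

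The TEAD3 start peak ranked 29937 and 24595 in the empty vector lists, 7771 and 12657 in the TAZ4SA lists, and 14181 and 13218 in the YAP5SA lists. It was absent from TAZ_CAMTA1 replicate 1 and ranked 5019 in replicate 2. It ranked 14828 and 16358 in the YAP_TFE3 lists and 15239 and 13738 in the CAMTA1 lists, and was absent from TFE3 replicate 1 with a rank of 17065 in replicate 2. Of the 12 lists with a start peak, the empty vector lists gave the 2 weakest ranks by number and by share of the list (69.9% and 49.3%). They carry CAMTA1 in their peak names. In how many other regions these lists rank last was not counted. The start peak was 572 to 3711 bp wide, with a median of 1565 bp, and its summit lay past the start in 3 of 12 lists and before it in the others.

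Inside the TEAD3 body a second cluster of peaks between 5 and 17 kb from the start was present in 13 of 14 lists. Its peaks were joined to the start peak where the long peaks of the 2 TAZ4SA lists overlapped, so the merged start-site region (chr6:35450390-35466569) holds both. In 5 of 13 lists, namely both empty vector lists, both YAP_TFE3 lists and TAZ_CAMTA1 replicate 1, the best peak of that region was in the intragenic cluster and not at the start. Covered bases of the region were 3268 and 7236 in the empty vector lists, 14709 and 14981 in the TAZ4SA lists, and 2003 and 2761 in the YAP5SA lists. They were 1552 and 7946 in the TAZ_CAMTA1 lists, 8033 and 4357 in the YAP_TFE3 lists, 4679 and 3439 in the CAMTA1 lists, and 0 and 3256 in the TFE3 lists. The TAZ4SA lists again exceeded all others, as they did in 64.6% of the 23317 regions found in at least 7 lists.

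The strongest peak of the TEAD3 window was not at TEAD3's start in any list. It lay 24.91 to 30.33 kb from the start, beyond the 3′ end of the gene (chr6:35434530-35439949), on the side where RefSeq places RPL10A, which encodes a ribosomal protein, and it was present in 14 of 14 lists. Its rank ran from 1194 in TAZ4SA replicate 2 to 4214 in TAZ_CAMTA1 replicate 1, with a median of 2371.5. It was the only peak of the window in the shortest list.

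TEAD4 lies on the plus strand of chromosome 12 (hg19 chr12:3068748-3149842). Its start peak ranked 4835 and 5480 in the empty vector lists, 6188 and 6030 in the TAZ4SA lists, and 10159 and 9571 in the YAP5SA lists. It ranked 10622 and 4334 in the TAZ_CAMTA1 lists, 5410 and 3320 in the YAP_TFE3 lists, and 10248 and 4563 in the CAMTA1 lists. TFE3 replicate 1 had no peak anywhere in the window, and replicate 2 had one of rank 9445. By the labels the YAP5SA ranks, 32.7% and 31.7% of their lists, were weaker than the YAP_TFE3 ranks of 9.41% and 8.37%, without overlap, an order found in 39.9% of the 14592 regions counted above and the opposite of that at TEAD2. By the peak names YAP5SA stood at 9.41% and 8.37%, while YAP_TFE3 had no peak in 1 list and a rank of 20% in the other. The order at TEAD4 thus turned round, resting on 1 YAP_TFE3 list. By the peak names that order was found without overlap in 23.5% of 4291 regions with a peak in all lists of both groups, which TEAD4 is not among.

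Widths of the TEAD4 start peak were 10814 and 10650 bp in the TAZ4SA lists and between 581 and 5278 bp in the other 11. The 2 narrowest were those of the YAP5SA lists (878 and 581 bp), where the best-ranked peak near the start lay before it, with summits at -0.941 and -0.871 kb. In the TAZ4SA lists the summit lay 4.85 and 4.86 kb inside the gene. The start-site region (chr12:3064650-3076335) had a peak in 13 lists, which 7.67% of all merged regions reached or exceeded. Beyond it, 14 of the 22 regions of the TEAD4 window had a peak in 1 list, as did 55.4% of all merged regions, and the one found most often, 51.74 to 57.13 kb past the start (chr12:3120489-3125874), was in 3 lists, both of TAZ4SA and TFE3 replicate 2.

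Since the TAZ4SA lists were widest at all 4 genes, the share of each window under peaks was set beside that of the whole chromosome. At TEAD1 the ratio in the TAZ4SA lists was 7.56 and 7.67, close to the median of 7.35, and the highest ratios were those of the YAP5SA lists (9.55 and 10.1). At TEAD2 it was 1.82 and 1.76, close to the median of 1.7. At TEAD3 it was 7.36 and 8.7, the second of which was the highest of the 14. Of the 4 genes, only TEAD4 had both TAZ4SA ratios, 3.14 and 3.71, above those of every other list. In how many other windows the lists of a single label exceed all others was not counted. The lowest TEAD2 ratios, 0.643 in TAZ_CAMTA1 replicate 1 and 0.69 and 0.841 in the YAP_TFE3 lists, were those of the 3 lists in which the window was less covered than its chromosome. Ratios were not tested.

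**Figure D3:**
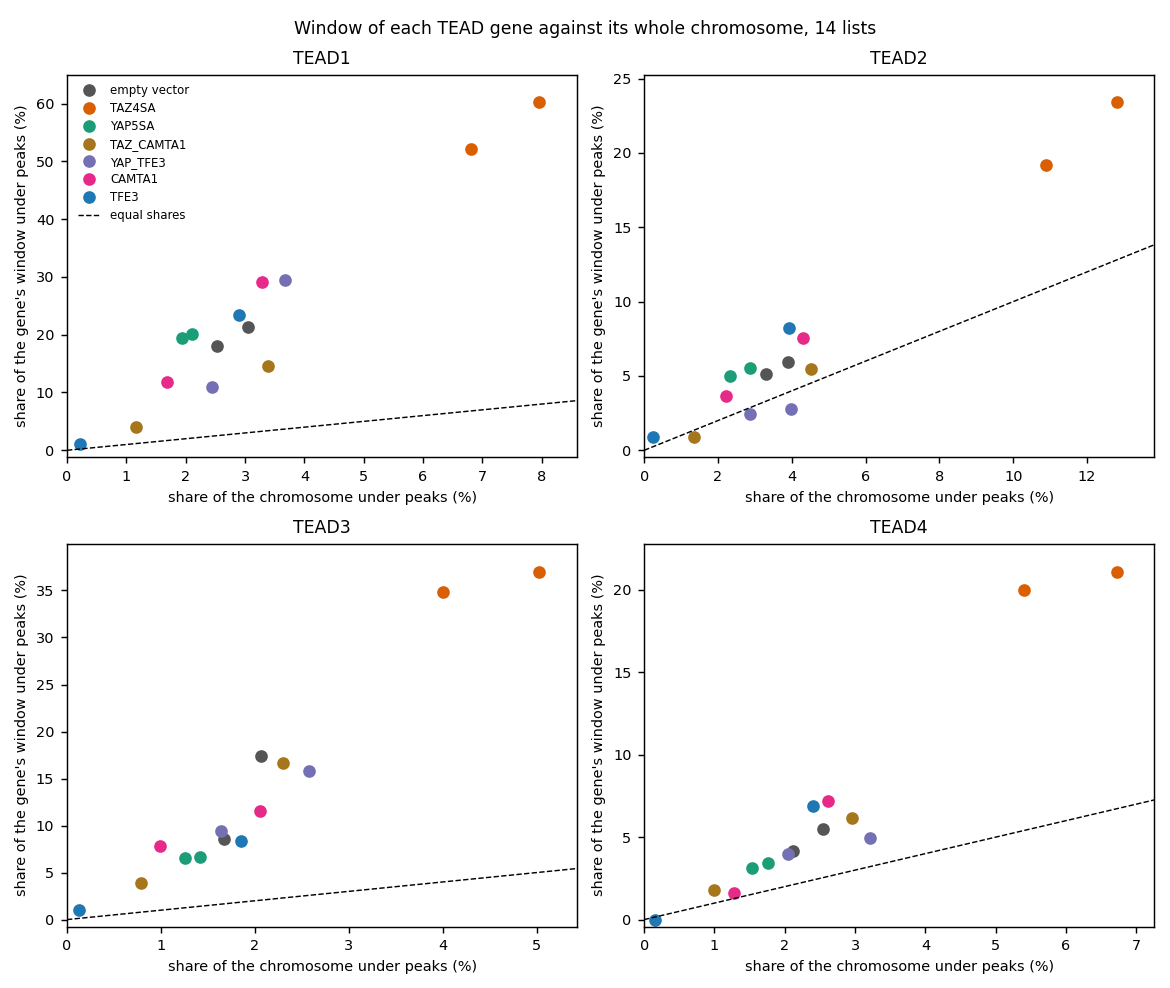
Percent of each TEAD window under peaks (vertical axis) against the percent of the whole chromosome under peaks (horizontal axis), 1 point per list coloured by label, with a dashed line of equal shares. At TEAD1 and TEAD3 all 14 lists lie above the line, and the TAZ4SA lists are farthest right in each panel.

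The constructs with a TEAD-binding part were then compared with the others, 8 lists (TAZ4SA, YAP5SA, TAZ_CAMTA1, YAP_TFE3) against 6 (empty vector, CAMTA1, TFE3). By the labels, no TEAD start-site region passed the test in covered bases. The TEAD1 region covered 18229 ± 6168.3 bp (SD, n = 8) in the TEAD-binding lists and 16060 ± 7407.2 bp (n = 6) in the others, a difference of 2169.2 bp (exact two-sided permutation test, p = 0.564, adjusted p = 0.73). At TEAD2 the means were 3817.1 ± 3308.2 and 2901.2 ± 1586.5 bp (exact permutation p = 0.542, adjusted p = 0.721). At TEAD3 they were 7042.8 ± 5407.4 and 3646.3 ± 2348.9 bp (exact permutation p = 0.193, adjusted p = 0.695). At TEAD4 they were 6363.4 ± 3407.8 and 5036.7 ± 3439.3 bp (exact permutation p = 0.482, adjusted p = 0.7).

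The groups overlapped at all 4 genes. Adjusted values are Benjamini-Hochberg over the 23317 regions with a peak in at least 7 lists, of which 0% had an adjusted p under 0.05 and 4.38% an unadjusted one. The smallest p this exact permutation test can give is 3.33e-04, so no region can pass adjustment unless many reach it. The 0% therefore does not show that no region differs. Of the 97 TEAD regions 19 entered this test, beside 16.8% of all merged regions, and 0 passed, before or after adjustment. All 19 had a higher mean in the TEAD-binding lists, but so did 95.2% of all regions tested. That direction follows the naming. With the constructs of the peak names the difference was -6163.4 bp at TEAD1, -2713 bp at TEAD2, -3335.2 bp at TEAD3 and -2161 bp at TEAD4. None was past the threshold after adjustment (exact permutation p = 0.0803, 0.0496, 0.201 and 0.246, adjusted p = 0.267, 0.247, 0.357 and 0.394). By this naming 4719 of the 23317 regions had an unadjusted p under 0.05, and 9.2% of all regions were higher in the TEAD-binding lists. Single lists moved the differences by the labels. Without TFE3 replicate 1, the shortest list, the TEAD1 difference became -548.2 bp and that at TEAD4 319.4 bp. The TEAD2 difference of 916 bp became 101.4 bp without TAZ4SA replicate 1 and 262 bp without replicate 2, and 119.5 bp when all lists were shortened to their best 5721 peaks. With lists shortened in this way the TEAD1 difference of 2169.2 bp became 1224.8 bp. The TEAD4 difference of 1326.7 bp became 534.8 and 633 bp without TAZ4SA replicates 1 and 2. At TEAD2 and TEAD4 the median of the TEAD-binding lists was below that of the others (2735 against 2890 bp, and 5397.5 against 5829 bp), unlike the mean.

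**Figure D4:**
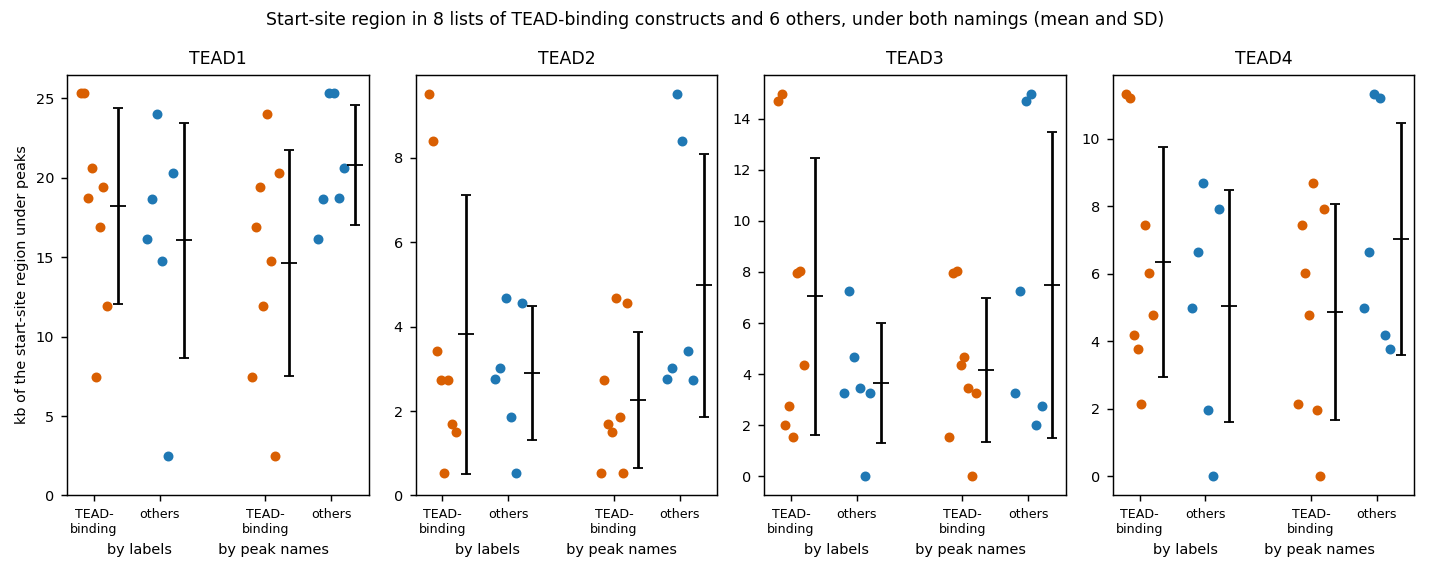
Kb of each start-site region under peaks in the 8 lists of TEAD-binding constructs and the 6 others, grouped by the labels on the left of each panel and by the peak names on the right, with the mean and SD beside the points. The 2 TAZ4SA-labelled lists are the highest points in each panel. They are among the 8 lists that change sides between the namings, and the order of the means turns round at all 4 genes.

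Ranks could be tested at TEAD1 and TEAD2, whose start-site regions had a peak in every list. At TEAD1 the mean log2 rank was 10.35 ± 0.78 (SD, n = 8) in the TEAD-binding lists and 9.50 ± 0.55 (n = 6) in the others, a difference of 0.85 toward larger rank numbers (exact permutation p = 0.0383, adjusted p = 0.756 over 4061 regions). An unadjusted p under 0.05 was reached by 6.45% of those regions and an adjusted one by 0%. The smallest possible p given above holds here too, so the 0% does not show that no region differs. A rank number depends on the length of its list. With rank divided by list length, an alternative chosen after seeing the data, the TEAD1 difference was 0.25 (exact permutation p = 0.729) and that at TEAD2, given next, changed sign to -0.14 (exact permutation p = 0.862). Leaving out each list in turn, the TEAD1 difference in rank number ran from 0.64 to 1.01 with unadjusted exact permutation p from 0.0202 to 0.0925. Ranking by fold enrichment gave 0.45 (exact permutation p = 0.41), and the peak names 0.15 (exact permutation p = 0.738). At TEAD2 the means were 12.54 ± 1.15 and 12.08 ± 0.49, a difference of 0.46 (exact permutation p = 0.374, adjusted p = 0.875), and by the peak names it was 0.75 (exact permutation p = 0.135, adjusted p = 0.622). It was 0.27 without TAZ_CAMTA1 replicate 1 and 0.73 without YAP5SA replicate 1. Without the shortest list TEAD3 and TEAD4 could be tested as well, by the labels only, with differences of -0.70 (exact permutation p = 0.0295, adjusted p = 0.874) and -0.06 (exact permutation p = 0.865, adjusted p = 0.993) over 10447 regions. Of these regions 572 had an unadjusted p under 0.05. The TEAD3 value mixes 2 elements, since the best peak lay in the intragenic cluster in 5 of 13 lists.

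Whether the 2 lists of one label were more alike than lists paired otherwise does not depend on the naming. The measure was the share of the spread among the 14 lists that lay between labels. In covered bases it was 49.9% at TEAD1 (exact one-sided permutation over all 135135 pairings, p = 0.395, adjusted p = 0.447), 83.3% at TEAD2 (exact permutation p = 0.0627, adjusted p = 0.173), 84.7% at TEAD3 (exact permutation p = 0.0408, adjusted p = 0.173) and 52.1% at TEAD4 (exact permutation p = 0.383, adjusted p = 0.437). In log2 rank it was 48.6% at TEAD1 (exact permutation p = 0.44, adjusted p = 0.572) and 76.9% at TEAD2 (exact permutation p = 0.0509, adjusted p = 0.21). Without the shortest list it was 90.45% at TEAD3 and 62.69% at TEAD4. Of the 19 TEAD regions tested, 6 had an unadjusted p under 0.05 in covered bases, beside 24.3% of all regions, and 0 passed after adjustment, beside 0%. In log2 rank 0.369% of regions passed after adjustment, none of them at a TEAD start, and 23.9% had an unadjusted p under 0.05. At TEAD1 the share depended on single lists, since in covered bases it was 78% without TFE3 replicate 2 (exact permutation p = 0.0798), and in log2 rank 82.5% without TAZ_CAMTA1 replicate 2 (exact permutation p = 0.032, adjusted p = 0.158). Ranked by fold enrichment, the TEAD1 share in log2 rank was 21% (exact permutation p = 0.913). At TEAD2 the share in covered bases was 38.8% with the lists shortened to their best 5721 peaks (exact permutation p = 0.592). At TEAD4 it was 34.4% without TAZ4SA replicate 1 (exact permutation p = 0.771). Leaving out a TAZ4SA list also shortened the region tested at TEAD3, so list and region changed together there. The TEAD3 share then fell. It was 44.6% without TAZ4SA replicate 1 (exact permutation p = 0.606) and 64.6% without replicate 2 (exact permutation p = 0.226). Without either of these lists the merged TEAD3 region broke up, leaving 2613 or 3711 bp around the start. The difference between TEAD-binding and other lists became 463.3 or 620.1 bp.

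The regions of other chromosomes whose log2 rank over the 14 lists was most like that of the TEAD1 start-site region were chr5:133558448-133563610 (Pearson r = 0.787) and chrX:154840962-154843295 (r = 0.77). For TEAD2 they were chr1:149853414-149863600 (r = 0.911) and chr6:27795615-27809654 (r = 0.878). The median r with all 4061 regions was 0.104 for TEAD1 and 0.214 for TEAD2. The points share the length of their list, on which a rank depends, and no gene was assigned to these regions.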

How the data were processed

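H3K27ac ChIP-seq of SW872 cells was analysed from 14 deposited narrowPeak lists, and the 14 input libraries were not used here. According to the methods, the authors aligned trimmed reads to GRCh37/hg19 (BWA-MEM), discarded multi-mapping reads and greylisted regions, and ran MACS2 in paired-end mode. Versions of BWA and MACS2 are not given in the labels. The methods state a q of 0.10 and pooled replicates, but each list is of 1 library and the lowest −log10 q is 1.3. Per the deposited columns, a peak has a fold enrichment (a ratio to background), a −log10 p and a −log10 q, used here only to rank or filter peaks within a list. Long peaks chain regions together and list lengths differ, which changes widths, so ranks are given too.

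Peaks that overlapped or touched were merged across lists. Covered bases were tested in 23317 regions with a peak in at least 7 lists, and log2 rank of the best peak in 4061 regions with a peak in all 14. The 8 and 6 lists were compared by an exact two-sided permutation test over 3003 splits, and the likeness of lists with one label by an exact one-sided test over 135135 pairings, each with Benjamini-Hochberg adjustment over all regions tested at a threshold of 0.05 (Python 3.11.15, numpy 2.4.6, scipy 1.17.1). Both were tested on simulated data. Regions named are the start-site region of each gene, others found in all lists, and otherwise the one found in most lists.

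Alternatives were stricter q limits (0.01, or a −log10 q of 5), lists shortened to their best 5721 peaks, stitching within 1000 bp, ranking by fold, grouping by the peak names, a replicate block, other windows, leaving out each list and, added after seeing the data, rank divided by list length. The members and lists were chosen with earlier results of these data known. No GRCh37 genome or annotation was used, so other Hippo genes were not placed, and no coordinates were converted between builds. Promoters are from RefSeq (GRCh38.p14).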

Additional observations from a re-analysis of the deposited data

Results flagged for a closer look

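The difference between fusion and active form had opposite directions in the TAZ and YAP arms at TEAD3 and TEAD4 by the labels, with no overlap between the 2 lists on either side. In the start-site region of TEAD3 the TAZ_CAMTA1 lists minus the TAZ4SA lists gave -10096 bp, and the YAP_TFE3 lists minus the YAP5SA lists gave 3813 bp. Over the whole TEAD3 window the differences were -16274 bp and 3799 bp. At TEAD4 they were -6482.5 bp and 1416 bp in the start-site region, and -20098 bp and 1416 bp in the window. The difference between the arms was not tested. The same pattern, opposite directions without overlap, was found by the labels in 24.1% of the 23317 regions with a peak in at least 7 lists, and a TAZ arm negative without overlap in 81.7%. By the peak names the pattern was found in 1.33%.

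By the peak names both arms were negative at TEAD3, and at TEAD4 each arm changed sign and its lists overlapped. At TEAD3 the fusion minus the active form was -690 bp in the TAZ arm, with overlap, and -4567 bp in the YAP arm, and at TEAD4 it was 532 bp and -1444.5 bp, both with overlap. The TAZ4SA-labelled lists are the 2 longest of the 14 (102009 and 98992 peaks), and the part of list length in these differences was not tested.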

How the results depend on the processing

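All 12 tests of the TEAD start-site regions stayed above an adjusted p of 0.05 under every alternative that gave a value. The direction changed with the peak names as groups (-6163.4 bp at TEAD1, -2713 bp at TEAD2, -3335.2 bp at TEAD3 and -2161 bp at TEAD4), at TEAD1 without TFE3 replicate 1, and in log2 rank at TEAD2 with rank divided by list length (-0.14), which was chosen after seeing the data. Leaving out each list in turn, the TEAD1 difference in covered bases ran from -548.2 to 3762.2 bp. The other ranges were 101.4 to 1385.3 bp at TEAD2, 463.3 to 4180.8 bp at TEAD3 and 319.4 to 2059.4 bp at TEAD4. With the lists shortened to their best 5721 peaks, the start-site regions of TEAD3 and TEAD4 could not be tested and that of TEAD2 could not be tested in rank, and with a −log10 q of at least 5 the rank test of TEAD2 was lost.

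Replicate numbers do not pair the lists, since same-numbered lists of 2 labels deviated together with a median r of 0.0267 (-0.13 to 0.25 over 21 pairs of labels, 2 of them over 0.1). With the replicate block the values stay the same by construction (2169.2 bp at TEAD1), and the p at TEAD1 was 0.748 after adjustment in the exact permutation test. The 15 regions passing the likeness test in log2 rank became 0. The block leaves 5040 pairings in place of 135135, so its smallest p is larger. The fall to 0 therefore cannot tell an effect of the block from a coarser test. No test at a TEAD gene changed its call. The mean number of peaks in the windows fell with shorter lists (from 43.6 to 2.5 at TEAD1 and from 4.71 to 0.429 at TEAD4). The read depth behind the lists is unknown.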
